A study of Homo sapiens with 4 samples.

Results

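The p53 axis and the BCL2 family were described in the peak list of the PRMT5 RIP-seq through 9 genes chosen by symbol: the p53 regulators MDM2 and MDM4, the p53 target CDKN1A, and the BCL2 family genes BAX, BBC3, BCL2, MCL1, BCL2L1 and BCL2L11. Of the 8478 genes with a peak in the list, 7 were among these 9, and they carried 19 of the 18993 peaks. MDM4 and CDKN1A had no peak in the list analysed here. The peaks are numbered up to 19231, and 238 of these numbers are not among the peaks analysed here, so a gene without a peak is one without a peak among those held. The list came from Jurkat, a human T cell line grown from a leukemia, whose cells were stimulated with PHA, a lectin that activates T cells, for 48 hours and crosslinked by UV light at 400 mJ in all groups. RNA bound to PRMT5 was recovered with a FLAG antibody in 2 PRMT5 RIP libraries, and 2 input libraries served as the comparison. The labels do not describe the FLAG construct or an immunoprecipitation without it. Each peak has a single pooled RPM (reads relative to the size of the library) per group, so no spread between replicates, no test across libraries and no read depth can be given for any value. Of 10 T cell markers 7 had a named peak, with summed input RPM from 9.26 to 417, while the T cell receptor constant region genes TRAC, TRBC1 and TRBC2 had none, and 0 of 6 markers of other blood cells had one.

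The tumor suppressor p53 is a transcription factor that stops the cell cycle or starts apoptosis after damage. MDM2 is the ubiquitin ligase that degrades p53, MDM4 is its relative that blocks p53 activity, and CDKN1A encodes the cyclin-dependent kinase inhibitor p21. In the BCL2 family, the pro-survival proteins BCL2, BCL-XL (from BCL2L1) and MCL1 restrain BAX, which permeabilizes mitochondria, and the BH3-only proteins PUMA (from BBC3) and BIM (from BCL2L11) oppose them. Jurkat cells are known to lack functional p53. PRMT5 is known to methylate p53, and loss of PRMT5 activity is known to change the splicing of MDM4 transcripts.

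All 19 peaks had more RPM in PRMT5 RIP than in input. The share over the whole list was not computed, and the list holds only called peaks, so this count is not read as a trait of these genes. The fold of PRMT5 RIP over input ran from 1.5 to 13.1 over the 18 peaks with an input RPM above 0, with a median of 2.85 beside 2.18 over all such peaks of the list. On the scale of the log2 ratio with 0.01 added to each RPM, 15 of the 18 peaks were at least 2-fold above input, and 55.7% of all peaks were. The 18 peaks came from 7 genes, and 8 of them from BCL2L1, so they were not independent. Input signal moved with this count: the median input RPM was 0.29 over the members' 19 peaks and 0.83 over all peaks. In the whole list 73.8% of peaks with an input RPM below 0.5 were at least 2-fold above input, beside 43.8% of those with 0.5 RPM or more. Among the members' peaks this held for 8 of 9 and for 7 of 9. The part of low input signal in the members' count was not tested. All 19 peaks had an FDR of the peak caller at or below 0.01, as did 96.9% of the list.

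**Figure D1:**
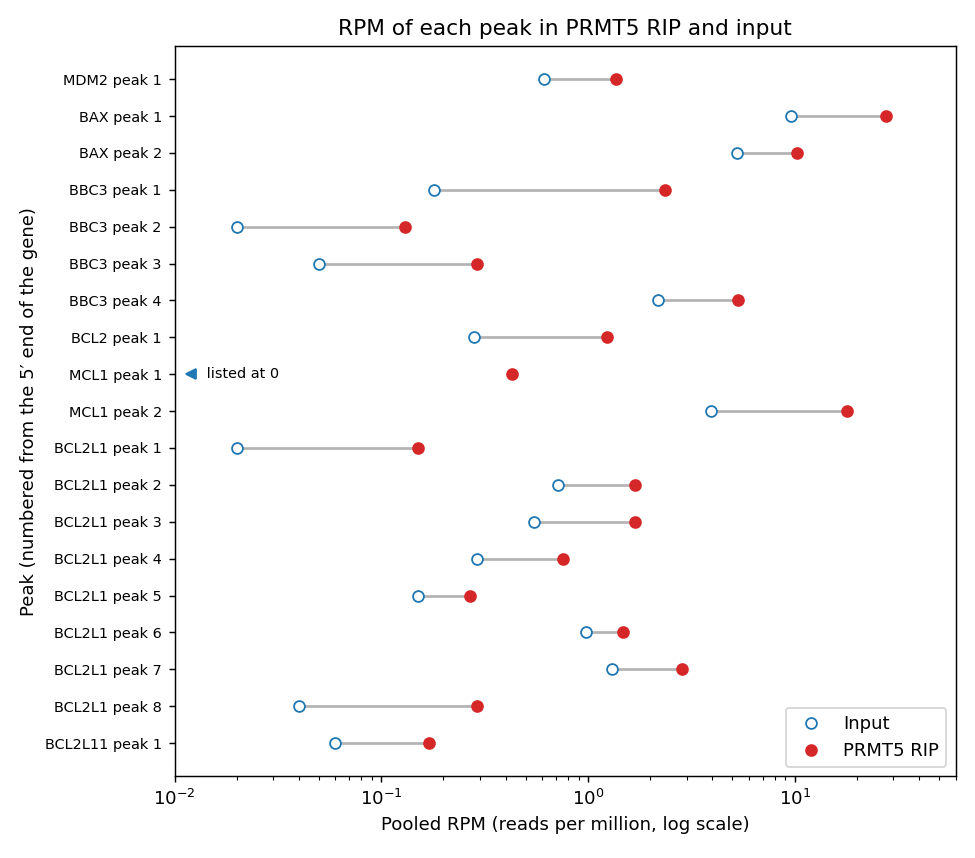
Pooled RPM of the 19 peaks of the 7 genes on a log axis, with open circles for input and filled circles for PRMT5 RIP, and peaks of a gene numbered from its 5′ end. MCL1 peak 1 is listed at 0 in input and is drawn as a triangle at the edge. For the other peaks every filled circle lies to the right of its open circle. Among these, BBC3 peak 1 has the widest gap, from 0.18 to 2.36 RPM.

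In 3 genes a peak began at, or 1 nt after, an annotated transcript start of RefSeq (GRCh38.p14), and the bases around these starts are shown. How the peak caller sets the edges of peaks is not stated, so these edges do not place the reads to the base. A start site was given for 6 of the 7 genes, and in 13% of 5858 named genes with a start site a peak edge lay as close. The smallest distance over all peaks and starts of a gene was taken. Genes with many peaks or starts thus had more chances of a match, so no excess is read from these counts. Each line gives 30 bases before and 30 from the start site on, 5′ to 3′ on the strand of the gene, with the bases covered by a peak in capitals. The MDM2 gene has 2 groups of annotated starts, the upstream promoter and the internal promoter that p53 is known to activate, and both are shown.
MDM2 upstream start, chr12:68808147-68808206, plus strand: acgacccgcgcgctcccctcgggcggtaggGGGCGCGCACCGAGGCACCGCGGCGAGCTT
MDM2 internal start, chr12:68808987-68809046, plus strand: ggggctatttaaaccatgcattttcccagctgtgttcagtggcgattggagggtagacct
BAX start, chr19:48954845-48954904, plus strand: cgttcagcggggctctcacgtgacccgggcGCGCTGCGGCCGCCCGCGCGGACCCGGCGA
BCL2L1 internal start, chr20:31722839-31722898, minus strand: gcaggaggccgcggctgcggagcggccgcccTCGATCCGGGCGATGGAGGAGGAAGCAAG

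Of MDM2, MDM4 and CDKN1A, only MDM2 had a peak. Its single peak, under ENSG00000135679.27, was 100 nt wide and spanned chr12:68808177-68808276 on the plus strand. It had 1.37 RPM in PRMT5 RIP against 0.61 RPM in input, a fold of 2.25, with a log2FC of the peak caller of 1.99 and an FDR of 9.73e-14. The peak began 5 nt after the 5′ end of the gene, at 1 of the annotated starts of the upstream promoter shown above, and left the other 42415 nt of the gene without a peak. No peak covered the internal start at 68809017 in the line above. By the log2 ratio of summed RPM, MDM2 had rank 4474 of 8473 genes with input above 0, so about as many genes lay above it as below it.

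For MDM4 and CDKN1A the list held no peak on either strand of the gene. MDM4 spans chr1:204516406-204558120 and the nearest peak on its strand lay 104717 nt away. CDKN1A spans chr6:36676463-36687332, and the nearest peak on its strand, 74672 nt away, belonged to SRSF3, a splicing factor gene. The list holds only regions called as peaks, so the absence of a peak gives no level for these transcripts in PRMT5 RIP or in input.

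By summed RPM, the pro-survival genes MCL1 and BCL2 had the highest folds of the 7 genes. Among the single peaks with input above 0, those with the highest folds were in BBC3 and BCL2L1. MCL1 peak 1, which has no fold, is not among these peaks but counts in the sum of MCL1. By the median log2FC of the peak caller over the peaks of a gene with input above 0, BBC3 had the highest value, 3.44. For MCL1 the value, 3.29, was that of peak 2 alone, because its peak 1 was listed at 0 in input and was left out. MCL1 encodes a short-lived pro-survival protein. Its peak 2, 625 nt wide on the minus strand at chr1:150578863-150579487, had 17.9 RPM in PRMT5 RIP against 3.95 RPM in input, a fold of 4.54 with a log2FC of the peak caller of 3.29. MCL1 peak 1, 25 nt wide, began 73 nt after the 5′ end of the gene, and had 0.43 RPM in PRMT5 RIP while input was listed at 0, so no fold is given. Both MCL1 peaks lay in the 5′-most 748 nt of a gene of 5053 nt. MCL1 had rank 874 of 8473 genes, and rank 189 of the genes with a summed input of at least 1 RPM.

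BCL2, the founding member of the family, had 1 peak in a gene of 196745 nt. The peak was 200 nt wide at chr18:63318348-63318547 on the minus strand and began 1543 nt after the 5′ end of the gene. It had 1.24 RPM in PRMT5 RIP against 0.28 RPM in input, a fold of 4.43, which ran from 4.33 to 4.53 within the rounding of the deposited values. The log2FC of the peak caller was 2.89.

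BCL2L1 had 8 peaks, a number that 1.26% of genes reached or passed, and they fell into a 5′ group of 6 and a 3′ group of 2, with no peak in the more than 56 kb between them. The gene has 59512 nt on the minus strand of chromosome 20. Peak 1 in the 5′ group had 0.15 RPM in PRMT5 RIP against 0.02 RPM in input, a fold of 7.5 that ran from 5.80 to 10.3 within rounding. Peak 3, which began 1 nt after the internal start shown above, had 1.68 RPM and 0.55 RPM, a fold of 3.05. Peaks 2 and 4 had folds of 2.35 and 2.62. Peaks 5 and 6, with folds of 1.80 and 1.5, had the lowest folds of the 18 peaks with input above 0. In the 3′ group, peak 7 had the highest RPM of any peak of the gene, 2.84 RPM in PRMT5 RIP against 1.3 RPM in input, a fold of 2.18. Peak 8, the last before the 3′ end of the gene, had 0.29 RPM and 0.04 RPM, a fold of 7.25 that ran from 6.33 to 8.43 within rounding. The highest folds of BCL2L1 were thus at its outermost peaks, where input RPM was at most 0.04. Over the 8 peaks, the summed RPM was 9.15 in PRMT5 RIP and 4.05 in input, a fold of 2.26.

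Signal on the other strand moved with part of the BCL2L1 values. Peaks 2, 3, 4 and 6 overlapped peaks of ENSG00000281376.1 on the plus strand over 78.7% to 100% of their width, and 18.1% of all peaks in the list overlapped a peak on the other strand. Opposite peak 6, with 1.47 RPM in PRMT5 RIP against 0.98 RPM in input, the plus strand had 2.10 RPM and 1.39 RPM. Opposite peak 3 it had 1.44 RPM and 0.39 RPM, and opposite peak 2 it had 1.5 RPM and 0.59 RPM. The folds of these plus-strand peaks ran from 1.51 to 3.69, and on both strands the highest was at peak 3 and the lowest at peak 6. How reads were assigned to strands is not stated, so reads of BCL2L1 and of its antisense partner cannot be told apart at these 4 peaks.

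**Figure D2:**
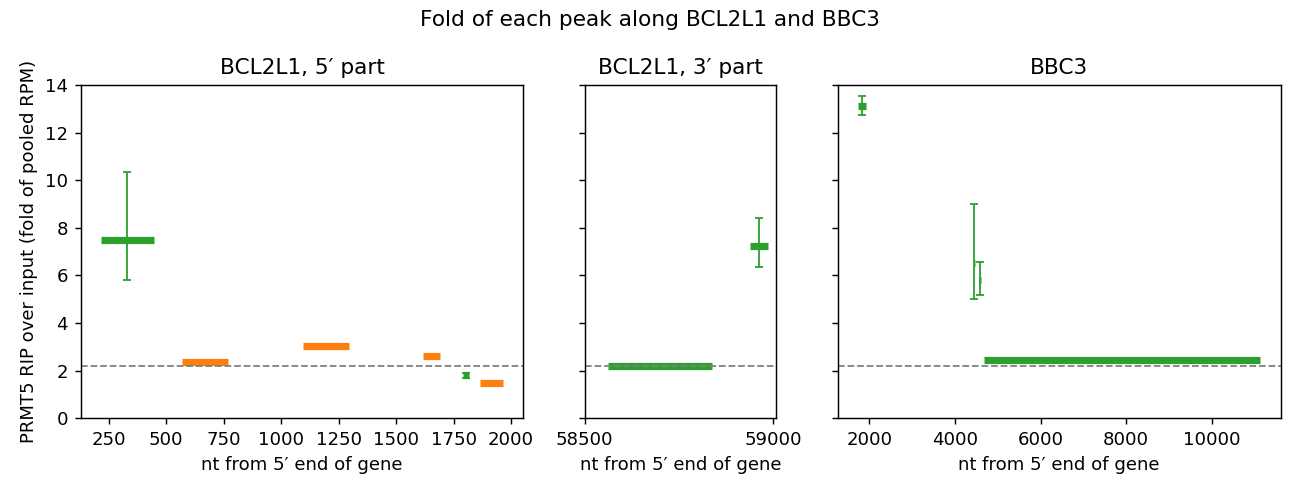
Fold of pooled PRMT5 RIP over input RPM (axis from 0) for the peaks of BCL2L1, in its 5′ and 3′ parts, and of BBC3, against the distance in nt from the 5′ end of the gene. Horizontal bars span each peak, vertical bars give the range allowed by rounding to 0.01 RPM, orange marks overlap with a peak on the other strand, and the dashed line is the median fold of all peaks, 2.18. The outermost BCL2L1 peaks and the 5′-most BBC3 peak stand highest.

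Among the pro-death genes, BBC3 had the peak with the highest fold. BBC3 carried 4 peaks, all on the minus strand (chromosome 19). Peak 1, 200 nt wide at chr19:47230929-47231128 and 1732 nt after the 5′ end of the gene, had 2.36 RPM in PRMT5 RIP against 0.18 RPM in input. Its fold of 13.1 ran from 12.7 to 13.5 within rounding, was higher than in 99.4% of peaks of the list by the log2 ratio, and the peak caller gave a log2FC of 4.34 with an FDR of 8.12e-12. Peaks 2 and 3 were 25 and 50 nt wide, with folds of 6.5 and 5.8 at an input RPM of at most 0.05. The rounding range of peak 2, from 5 to 9, spanned the fold of peak 3. Peak 4 was 6448 nt wide from start to end and listed a further gene identifier. It had 5.34 RPM in PRMT5 RIP, 2.19 RPM in input and a fold of 2.44. Because peak 4 held most of the signal, the summed RPM of the gene was 8.12 in PRMT5 RIP and 2.44 in input, a fold of 3.33 and rank 2048 of 8473.

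BAX, the effector of the group, had 2 peaks that together, counted from start to end, extended over nearly the whole gene. Peak 1, 6087 nt wide at chr19:48954875-48960961 on the plus strand, began at the annotated start shown above. From start to end it took in most of the gene of 6924 nt. The covered pieces (blocks) that the list gives within a peak were not used here, so parts of this extent, such as introns, may not be covered. Peak 1 had 27.6 RPM in PRMT5 RIP against 9.61 RPM in input, a fold of 2.87. Peak 2, 400 nt wide near the 3′ end of the gene, had 10.3 RPM and 5.27 RPM, a fold of 1.95. The log2FC of the peak caller was 2.76 at peak 1 and 2.47 at peak 2, so by that measure the peaks were closer to each other.

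BCL2L11 had 1 peak of 25 nt at chr2:111123858-111123882 on the plus strand, 2944 nt after the 5′ end of the gene. It had 0.17 RPM in PRMT5 RIP against 0.06 RPM in input, a fold of 2.83 that ran from 2.54 to 3.18 within rounding. Only 4.39% of peaks in the list had a lower PRMT5 RIP RPM. Counted from start to end, a minus-strand peak of ENSG00000172965.17, which listed a further identifier, extended over this site, from 111036917 to 111131365. It had 1.02 RPM in PRMT5 RIP against 1.03 RPM in input, a fold of 0.99. These values are for the whole minus-strand peak and give no level at the BCL2L11 site. Whether a block of that peak covers the site was not analysed.

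By role, the summed folds of the pro-survival genes were 2.26 for BCL2L1, 4.43 for BCL2 and 4.65 for MCL1, and those of the pro-death genes were 2.55 for BAX, 2.83 for BCL2L11 and 3.33 for BBC3. The ranges of the roles overlapped. Per kb of peak width, the level in PRMT5 RIP was 28.2 RPM for MCL1, 13.7 for MDM2 and 1.21 for BBC3. It was between 5.84 and 7.92 for the other 4 genes. In BBC3 and BAX a peak wider than 5000 nt from start to end took most of this width, and parts of it may not be covered. No order of the genes is therefore read from these levels. All 7 genes with a peak reached 2-fold by summed RPM, as did 62.3% of the 8473 genes with input above 0. The median summed fold was 2.83 over the 7 genes and 2.32 over all genes. MCL1 and BCL2 lay above the other 5 genes, although with a pseudocount of 1 the log2 ratio of BCL2, 0.81, was below those of BAX, BBC3 and BCL2L1, while MDM2 and BCL2L1 lay just below the median of all genes.

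Of the 19 peaks, 11 had their center in the first 10% of the gene, as did 27% of the peaks of named genes in the whole list. These 11 peaks came from 5 genes, MDM2, BCL2, MCL1, BCL2L1 and BCL2L11, and 6 of them from BCL2L1, so that 5 of 11 peaks of the other genes lay there. None of the peaks of BAX and BBC3 did. A further 3 peaks, of BAX and BCL2L1, had their center in the last 10%, beside 15.0% of the peaks of named genes. Which exon, intron or untranslated region each peak covers was not analysed here.

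A further 79 genes of the p53 and apoptosis pathways were listed from general knowledge, with earlier results of these data known. Of these, 41 had a named peak, 35 had no peak and 3 were touched by a peak without a unique name. By summed RPM 30 of the 41 genes were at least 2-fold above input, beside the 62.3% over all genes, and their median fold was 2.74. Among the other p53 regulators 11 of 15 had a peak and 7 of these reached 2-fold. The p53-related protein kinase gene TP53RK had 8.61 RPM against 2.04 RPM, a fold of 4.22, TRIM24, which encodes a ubiquitin ligase for p53, had a fold of 2.74, and KAT5, which encodes an acetyltransferase of p53, had a fold of 1.70.

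Of 26 further p53 targets 14 had a named peak, and 13 of these reached 2-fold, with a median fold of 3.37, beside 62.3% and a median of 2.32 over all genes. The AKT inhibitor gene PHLDA3 had 16.1 RPM against 4.45 RPM, a fold of 3.62, and the ferredoxin reductase gene FDXR had a fold of 2.95. TIGAR, a regulator of glycolysis, was the exception below 2-fold, with 1.51 RPM against 1.24 RPM and a fold of 1.22. TP53I3 and EI24 had folds of 2.47 and 2.17. In 7 of the 14 genes the summed input was below 1 RPM, and their folds ran from 3.13 to 9.76. The 7 genes with at least 1 RPM had folds from 1.22 to 3.62. The part of low input signal in the count and median of the p53 targets was not tested. The highest fold of the list, 9.76, was that of TP53I11, named after its value was seen.

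In the rest of the BCL2 family, 8 of 13 effector, BH3-only and related genes had a peak. Of these, 6 reached 2-fold, beside 62.3% of all genes. The pro-survival genes BCL2L2, BCL2A1 and BCL2L10 had none. For these genes, as for the caspases below, the absence of a peak gives no level of the transcript. No share of all genes with a peak was computed, so the counts of genes with a peak were not compared. BNIP3L, a mitophagy receptor gene, had a fold of 3.42, the BH3-only gene BAD had 74.8 RPM against 23.1 RPM and a fold of 3.24, and BIK had a fold of 2.77. BNIP3 and BID were below 2-fold, with 1.80 and 1.60. Of 22 genes of caspases, their inhibitors and the apoptosome, 8 had a named peak, and 4 of these reached 2-fold, beside the same 62.3%. The 8 were CYCS, DIABLO, HTRA2, ENDOG, BIRC5, FADD, VDAC1 and VDAC2. None of the 7 caspases in the list of genes had a peak. FADD, the adaptor of death receptors, had a fold of 3.03, the apoptosis inhibitor BIRC5 2.85 and the mitochondrial channel gene VDAC1 2.61, while HTRA2 and VDAC2 had folds of 1.38 and 1.34.

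**Figure D3:**
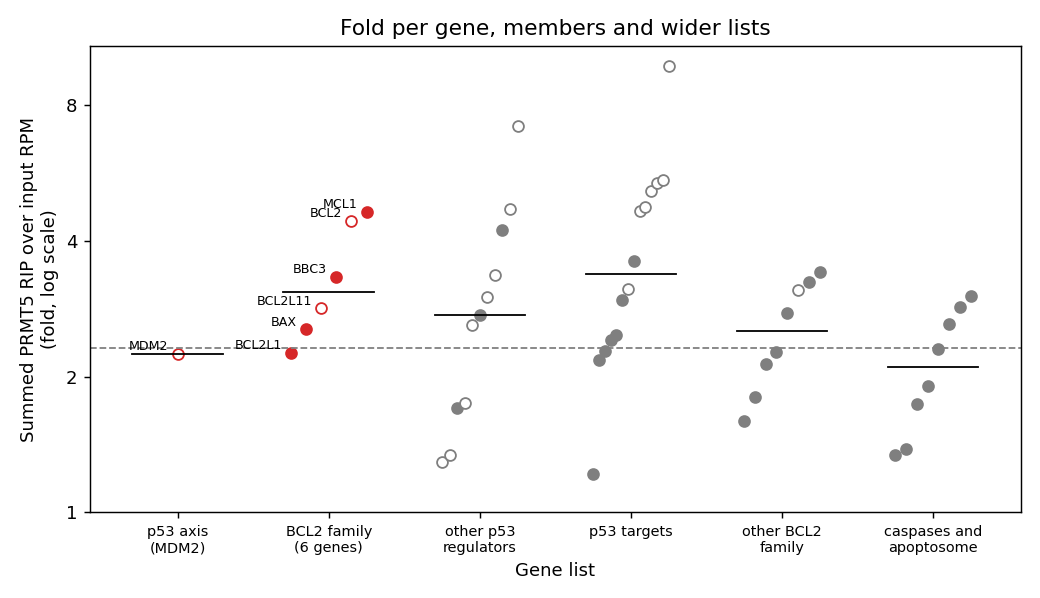
Fold of summed PRMT5 RIP over summed input RPM for each gene with a named peak (log axis), members in red and the genes of the wider lists in gray, with open symbols for a summed input below 1 RPM, a black line at each median and a dashed line at the median of all genes, 2.32. The BCL2 family members run from 2.26 for BCL2L1 to 4.65 for MCL1, and most of the highest points are open symbols.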

How the data were processed

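PRMT5 RIP and input RNA of PHA-stimulated Jurkat cells had been sequenced in 2 libraries each, and 1 peak list served all 4 libraries. The submitters' processing notes name fastp, HISAT2 and hg38. The peak caller, the annotation, the depth and the pooling are not given in the sources used here. The authors deposited pooled RPM values rounded to 0.01, and the log2 fold change (log2FC) and the FDR, an adjusted p-value, of their peak caller. The scaling of that log2FC is not stated, and it is not the log2 ratio of the RPM values.

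A peak with several identifiers counted for the one listed first, and starts were raised by 1. Widths, positions and overlaps run from the start to the end of a peak, and the blocks listed within peaks were not used. Identifiers were named by the symbol in the paper's target table or by the RefSeq gene of GRCh38.p14 that all of their peaks touched on 1 strand. Strand was not given for some genes, MCL1 among them, and then was not used. A name given to several identifiers was dropped. The naming was tested on made-up peaks. Folds are ratios of RPM, for peaks with input above 0, with ranges that cover rounding only. Log2 ratios have a pseudocount of 0.01. Members and lists were chosen with earlier results of these data known. All members were named, and in each wider list the 3 highest and 2 lowest genes by summed ratio at 1 RPM of summed input or more, or all where fewer than 5 qualified. TP53I11, CYCS, DIABLO, ENDOG, the genes named for having no peak and the nearest gene to CDKN1A were outside that rule. Some genes of the wider lists are counted but not reported singly here. The split of peaks at an input of 0.5 RPM, the distances to start sites and the share in the first 10% of genes were added after seeing the data. So were the fold ranges of the p53 targets by summed input. No test was made, because values are pooled. Python 3.11.15, pandas 2.3.3, numpy 2.4.6 and matplotlib 3.10.9 were used.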

Additional observations from a re-analysis of the deposited data

How the results depend on the processing

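No paired analysis was possible because each peak has a single pooled RPM per group, which also leaves no replicate to leave out. The number of members with a peak was 7, and 5 to 7 under its 7 alternatives. The 19 member peaks became 9 with an input RPM of at least 0.5 and 11 with at least 1 RPM in PRMT5 RIP. The 15 peaks at least 2-fold above input became 7 and 9 in the same settings, and 3 with a pseudocount of 1. The median log2 ratio of 1.44 was 0.60 with a pseudocount of 1, 2.45 by the log2FC of the peak caller and 2.11 without peaks that overlap the other strand. Of all peaks 55.7% were at least 2-fold above input, against 18.5% with a pseudocount of 1 and 91.2% by the log2FC of the peak caller. For the log2 ratio of summed RPM of the members, 35 of 46 alternative values stayed within 1.5 times and none changed sign. Alternatives made from RPM could not change sign, because all 19 peaks had more RPM in PRMT5 RIP than in input. Some could not differ from the main value, such as the median over peaks of a gene with 1 peak. No value could be had for BCL2 and BCL2L11 at an input of at least 0.5 RPM, or for BCL2L11 without peaks that overlap the other strand. With a pseudocount of 1 the log2 ratio of summed RPM fell from 1.15 to 0.56 for MDM2 and from 2.11 to 0.81 for BCL2. For BCL2L11 it fell from 1.36 to 0.14, and it was 0.75 with a pseudocount of 0.1. The median log2FC of the peak caller was taken over peaks with input above 0, which left out 1 peak of MCL1. It was 1.99 for MDM2, 2.62 for BAX, 3.44 for BBC3, 2.89 for BCL2, 3.29 for MCL1, 2.06 for BCL2L1 and 2.26 for BCL2L11. The depth per library is unknown, and rounding to 0.01 RPM limits the folds of peaks with an input of a few hundredths.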
